A study of Mus musculus with 16 samples.

Results

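Homozygous knock-in germinal centre B cells carrying the RH allele of Crebbp (RH HOMO, 3 libraries) were compared with wild type cells of the same series (RH WT, 3 libraries), which are 6 of the 16 libraries in the data. The members were chosen by the library titles alone, and the comparison was made across all genes. The RNA came from B220+, PNA+ and CD95+ cells sorted from the spleens of mice that had been immunised by injection of sheep red blood cells. The homozygous group is labelled Crebbp-RH/RH, the control group Crebbp-WT and a heterozygous group of 4 libraries Crebbp-RH/WT (RH HET). A separate arm holds 3 libraries from mice lacking Crebbp in germinal centre B cells (KO) and 3 wild type libraries of that arm.

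The series title describes both models as conditional and specific to germinal centre cells, and spells the allele R14467H, a position larger than the length of the protein. The labels do not name the Cre driver, do not say whether the controls carry Cre, and give no age, strain or pooling of mice. One label gives 10 days between immunisation and collection, and the protocol gives 12 days. Nothing says that each library came from its own mouse, so the spread behind each p-value is that among libraries and may be technical. Wild type 1 is titled as a knock-in series library, but its batch label names the knockout cohort, whereas the other 5 libraries carry the knock-in cohort label.

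Crebbp encodes a lysine acetyltransferase that binds to enhancers and promoters and acetylates histones and other proteins, and its closest paralog is encoded by Ep300. In germinal centres, B cells divide and mutate their immunoglobulin genes in the dark zone and are selected by T follicular helper cells in the light zone. There they present peptides on MHC class II and receive signals through CD40 and cytokine receptors. CREBBP is one of the genes most often mutated in lymphomas that arise from these cells, and many of those mutations change single residues of the acetyltransferase domain.

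The 6 libraries held 41407419 to 65534180 counts, and values are given as CPM, counts scaled to a common library size. A gene was tested if it passed a filter on low counts, which 16606 of 48593 genes did, and it was called at an adjusted p under 0.05. Adjusted p values are those of edgeR's quasi-likelihood test with Benjamini-Hochberg adjustment over all tested genes, unless another tool is named. On the first principal component of all 16 libraries, wild type 1 lay at 50.7 and homozygous 2 at 77.1, with the others between -40.7 and 24.3. Mitochondrially encoded genes took 4.72% to 7.34% of counts in wild type and 4.32% to 5.28% in homozygous libraries. By Xist counts, 1 of 3 wild type and 2 of 3 homozygous libraries came from females. The 14 markers of germinal centre B cells were all measured and summed to 11670 to 12401 CPM in wild type and 10342 to 11703 CPM in homozygous libraries. Mef2b was the 1 marker of the 14 called.

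The mRNA of the altered gene itself was not called. Crebbp (chromosome 16, 4081328 to 4213997, minus strand, GRCm38) stood at 93.2, 91.3 and 122 CPM in wild type 1 to 3 and at 115, 68.6 and 126 CPM in homozygous 1 to 3. These values overlapped, with a log2 difference, homozygous minus wild type, of 0.01 ± 0.17 (SE, adjusted p = 0.985). Its paralog Ep300 stood at 235, 206 and 311 CPM against 277, 130 and 328 CPM (-0.04 ± 0.23, adjusted p = 0.970). Homozygous 2 was the lowest library for both genes. Counts per gene do not show a base change, so these levels check neither the allele nor the label. Of 16 tested genes for lysine acetyltransferases, their coactivators and BET readers of acetylated histones, 0 were called, with a median difference of -0.05, beside 0.02 over all tested genes. The member nearest to the threshold was the reader gene Brd3 (-0.37 ± 0.13, adjusted p = 0.209).

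Homozygous cells had 96 genes higher (0.578% of those tested) and 165 genes lower (0.994%) than wild type. Counts of calls in the gene lists below stand beside these shares, and a single call does not set a list apart. The rises were small for the most part, with a median log2 size of 0.82 and 35 of 96 at 1 or more. The falls had a median size of 1.02, with 86 of 165 at 1 or more. In none of the 261 called genes did the 3 homozygous and 3 wild type libraries overlap. Over all tested genes, 1227 (7.39%) had every homozygous library above every wild type library and 1333 (8.03%) had every one below. The difference was positive in 8749 tested genes and negative in 7857. Protein-coding genes made up 90 of the rises and 147 of the falls. Calls were found both among faint genes, with 24 below a mean of 1 CPM, and among abundant ones, with 37 at 100 CPM or more.

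**Figure D1:**
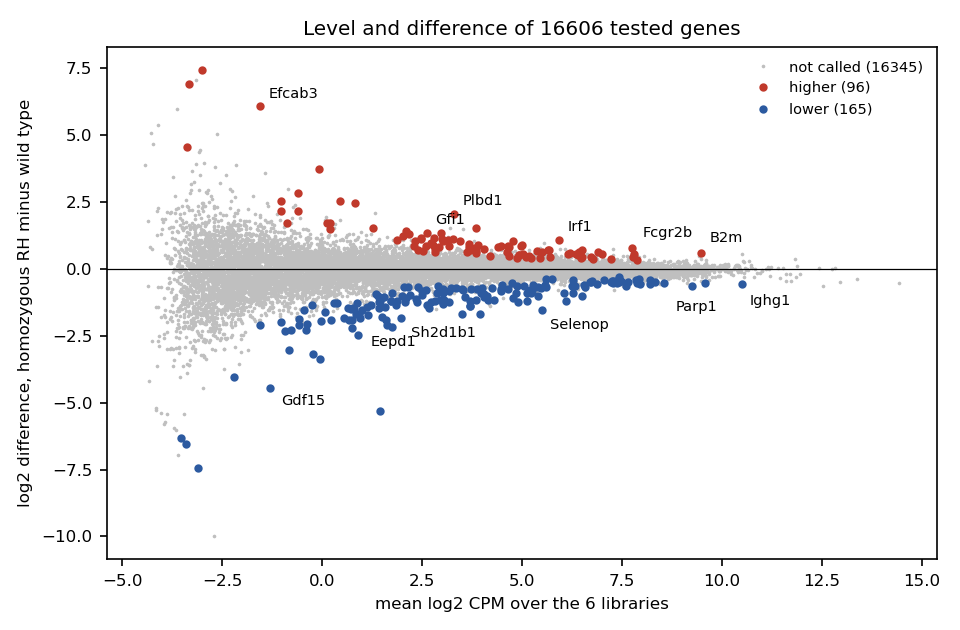
Each point is 1 of 16606 tested genes, with the mean log2 CPM over the 6 libraries on the x axis and the log2 difference, homozygous minus wild type, on the y axis. The 96 called rises are red and the 165 called falls blue; the largest differences lie among faint genes, while abundant called genes such as B2m, Parp1 and Ighg1 differ by less than 1.

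The spread was estimated over all 16 libraries. Fitted on the 6 libraries alone, as planned, edgeR called 0 genes, with 558 higher and 678 lower at an unadjusted p under 0.05. On the same 6 libraries DESeq2 found 117 rises and 181 falls, and limma-voom found 209 and 339. The DESeq2 and limma-voom fits on these libraries were not planned and were chosen after seeing the data. Of the 261 calls, 79 held in all 6 fits that left out 1 library. No called gene changed sign in any of those fits. Because the groups did not overlap in any called gene, the sign could hardly change, so this does not measure stability. Without wild type 2, 104 of the 261 were still called, and without homozygous 3, 173 were.

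**Figure D2:**
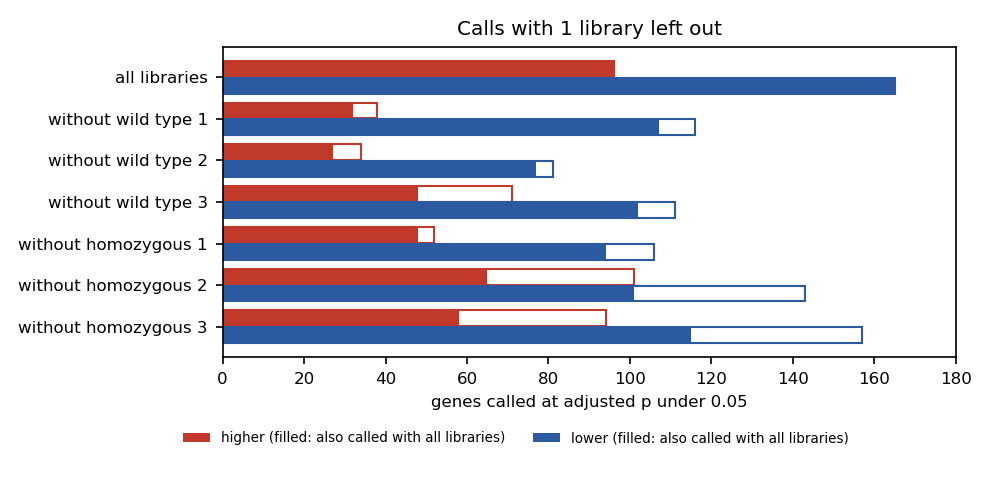
Bars give the number of genes called higher (red) and lower (blue) with all libraries and with each of the 6 libraries left out in turn; the filled part counts genes that are also called with all libraries. The fewest calls, 34 higher and 81 lower, came without wild type 2.

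Of 25 tested genes that respond to interferon gamma, 6 were called higher in homozygous cells and 0 lower, beside 0.578% and 0.994% of all tested genes. In 22 of the 25 the difference was positive, beside 8749 of all 16606 tested genes. The median was 0.49, beside 0.02 over all tested genes. The called members were Irf1, a transcription factor that carries the response forward, the immunity-related GTPase genes Irgm1, Igtp, Tgtp2 and Ifi47, and the guanylate-binding protein gene Gbp3. These GTPases act on the membranes that surround intracellular pathogens. The signalling genes at the head of the pathway, Ifngr1 (-0.17), Ifngr2 (0.24), Jak1 (-0.07) and Jak2 (-0.19), did not pass the test, nor did Irf8 (0.00), which germinal centre B cells express at a high level.

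Short stretches of the promoters of Irf1, Irgm1, Igtp, Tgtp2 and Gbp3, and of the class I light chain gene B2m, show the letters through which interferon-activated factors are known to bind. They were cut from RefSeq promoters (GRCm38.p6) and are written from 5′ to 3′ on the strand of the gene. Capitals mark the interferon-stimulated response element, searched as GAAANNGAAA on both strands, and the gamma-activated site, searched as TTCNNNGAA, which reads alike on both strands.
Irf1: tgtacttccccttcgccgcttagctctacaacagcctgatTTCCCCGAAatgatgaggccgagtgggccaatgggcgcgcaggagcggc
Irgm1: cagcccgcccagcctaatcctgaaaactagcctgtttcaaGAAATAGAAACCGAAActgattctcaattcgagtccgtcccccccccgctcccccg
Igtp: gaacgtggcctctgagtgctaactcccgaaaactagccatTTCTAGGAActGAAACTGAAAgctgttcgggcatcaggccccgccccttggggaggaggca
Tgtp2: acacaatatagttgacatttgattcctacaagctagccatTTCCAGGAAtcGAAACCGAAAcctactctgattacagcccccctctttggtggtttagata
Gbp3: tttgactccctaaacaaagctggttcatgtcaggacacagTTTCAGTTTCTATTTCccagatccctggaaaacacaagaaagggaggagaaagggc
B2m: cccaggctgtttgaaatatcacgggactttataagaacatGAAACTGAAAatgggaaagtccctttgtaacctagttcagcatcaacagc
The Irf1 stretch (chr11:53769884-53769972) holds a gamma-activated site that begins 90 bases before the start of transcription. Irgm1 (chr11:48871395-48871490, minus strand) and Gbp3 (chr3:142559959-142560054) hold 2 overlapping response elements each, which in Gbp3 lie on the other strand. Igtp (chr11:58199471-58199571) and Tgtp2 (chr11:49064233-49064333, minus strand) hold both kinds of site with 2 bases between them, and B2m (chr2:122147508-122147597) holds 1 response element.

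Over the window from 250 bases before to 50 bases after the start, the response element was found in 12 of the 72 called rises that have a listed promoter (16.7%), in 4 of 116 called falls (3.45%) and in 325 of 10308 tested genes (3.15%). The 12 were Irgm1, Gbp3, Tgtp2, Igtp, B2m, Ctss, Fcrla, Etv6, Gstt1, Rab19, Crybg1 and BC147527. The gamma-activated site was found in 10 of the 72 rises (13.9%), in 9 of the 116 falls (7.76%) and in 6.97% of tested genes. The 10 included Irf1, Igtp, Tgtp2, Gimap3, Adgrl2 and Fgl2. TGACGTCA, the palindromic element to which CREB, the binding partner that gave Crebbp its name, is known to bind, was found in 0 of the 72 rises, in 1 of the 116 falls (0.862%), Pdlim3, and in 3.27% of tested genes. Of the other called interferon gamma and class I genes, Ifi47 has a listed promoter with neither the response element nor the gamma-activated site, and Tapbpl was not matched to a listed promoter. A match describes the letters in this window only.

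As in every called gene, the libraries of the groups did not overlap in any of the 6 called interferon gamma genes. Irf1 (chromosome 11, 53770014 to 53778374) stood at 38.05, 42.6 and 45.7 CPM in wild type and at 76.0, 109 and 84.6 CPM in homozygous libraries, with homozygous 2 the highest (1.096 ± 0.21, adjusted p = 0.0125). Irgm1 stood at 8.07, 6.81 and 8.02 CPM against 13.3, 17.3 and 16.6 CPM, a rise of 1.05 ± 0.22 (adjusted p = 0.0207). For Tgtp2 the values were 1.31, 1.26 and 1.60 CPM against 4.19, 4.25 and 3.62 CPM, the largest of the 6 rises (1.53 ± 0.35, adjusted p = 0.032). Tgtp2 and its near-identical neighbour Tgtp1 share reads, so their levels are uncertain. Igtp rose from 10.0 ± 1.42 to 17.0 ± 1.40 CPM (SD, n = 3 per group, adjusted p = 0.0468), Ifi47 from 24.1 ± 5.74 to 44.4 ± 9.72 CPM (adjusted p = 0.0309) and Gbp3 from 21.4 ± 2.02 to 30.1 ± 2.58 CPM (adjusted p = 0.0253). In all, 16 of the 25 members lay wholly above wild type and 0 wholly below, beside 7.39% and 8.03% of all tested genes.

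These calls depended on single libraries. Without wild type 2 none of the 6 was called, with adjusted p from 0.0579 for Irf1 and 0.0718 for Igtp to 0.148 for Ifi47. Irf1 was also lost without wild type 1 (1.02, adjusted p = 0.0636), Igtp in each of the 6 such fits, Irgm1 and Tgtp2 in 5, Gbp3 in 4 and Ifi47 in 3. All 6 stayed positive, which the lack of overlap all but fixed, and Irf1 ranged from 0.93 to 1.19. With a term for the mitochondrial share none of the 6 was called, Irf1 was at 0.94 (adjusted p = 0.0742) and the median of the list was 0.40.

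Genes of MHC class I presentation, which displays peptides from inside the cell, were positive in 22 of 22 tested members with a median of 0.36, and 2 were called higher and 0 lower. B2m, whose product is the invariant light chain (chromosome 2, 122147686 to 122153083), stood at 634, 529 and 575 CPM in wild type and at 793, 1014 and 851 CPM in homozygous libraries (0.61 ± 0.14, adjusted p = 0.0275). Tapbpl, which edits the peptides bound to class I, rose from 30.3 ± 0.328 to 42.1 ± 2.52 CPM (SD, n = 3 per group, adjusted p = 0.0259). The heavy chain genes H2-K1 (0.48 ± 0.14, adjusted p = 0.0913), H2-D1 (0.37 ± 0.11, adjusted p = 0.107) and H2-Q6 (0.76 ± 0.20, adjusted p = 0.0714) did not pass, and such H2 paralogs share reads. Nor did the transporter subunit gene Tap1 (0.23), the immunoproteasome gene Psmb10 (0.51) and Nlrc5 (0.51), the transactivator of class I genes. The summed level of the list was 4886 to 5153 CPM in wild type and 5847 to 7536 CPM in homozygous libraries, without overlap. Homozygous 2 was well above homozygous 1 and 3 in H2-K1 (1007, beside 705 and 753 CPM) and Psmb10 (165, beside 106 and 94.5 CPM). In Erap1 and Nlrc5 it was the lowest homozygous library. H2-T23 stood at 161, 152 and 176 CPM in wild type and at 152, 211 and 152 CPM in homozygous libraries. Its positive sign thus rested on homozygous 2. B2m lost its call without wild type 2 (0.55, adjusted p = 0.131), wild type 3 (0.60, adjusted p = 0.0732) or homozygous 2 (0.50, adjusted p = 0.0746), and Tapbpl in 5 of the 6 such fits, without wild type 1, 2 or 3, homozygous 1 or homozygous 2, at 0.42 to 0.48. With a term for the mitochondrial share both calls were lost, B2m at 0.57 (adjusted p = 0.097) and Tapbpl at 0.42 (adjusted p = 0.0997). Among 29 tested type I interferon genes, with a median of 0.27, only Cmpk2, a nucleotide kinase, was called, at 4.82, 4.39 and 5.03 CPM in wild type and 6.73, 12.0 and 9.47 CPM in homozygous libraries (0.99 ± 0.24, adjusted p = 0.0493). Its call was lost in 5 of the 6 such fits, in all but the fit without homozygous 1.

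MHC class II genes, which present antigen to helper T cells, had no member called apart from 1 protease gene. Their median difference was -0.04 over 14 tested members, with 1 called higher and 0 lower. The alpha chain gene H2-Aa stood at 1501, 1456 and 1810 CPM in wild type and at 1543, 1532 and 1559 CPM in homozygous libraries (-0.04 ± 0.11, adjusted p = 0.924). Cd74, the invariant chain, stood at 7249 ± 860 and 7440 ± 1268 CPM (SD, n = 3 per group; 0.04 ± 0.14, adjusted p = 0.943), and Ciita, the transactivator of class II, at 488 ± 48.6 and 422 ± 86.5 CPM (-0.21 ± 0.13, adjusted p = 0.546). The chain genes H2-Ab1 (0.01), H2-Eb1 (-0.04) and H2-Eb2 (-0.31), the peptide loading genes H2-DMa (0.01), H2-DMb1 (-0.07), H2-DMb2 (-0.18), H2-Oa (0.02) and H2-Ob (-0.14) and the protease gene Lgmn (-0.24) did not pass. The 1 rise was in Ctss, the protease that trims the invariant chain, at 180, 172 and 209 CPM in wild type and 235, 284 and 251 CPM in homozygous libraries (0.46 ± 0.11, adjusted p = 0.0423). Ifi30, a lysosomal thiol reductase, was close to the threshold (0.47 ± 0.12, adjusted p = 0.0622). The Ctss call was lost in 5 of the 6 fits that left out 1 library, in all but the fit without wild type 3, at 0.38 to 0.51. It was also lost with a term for the mitochondrial share.

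**Figure D3:**
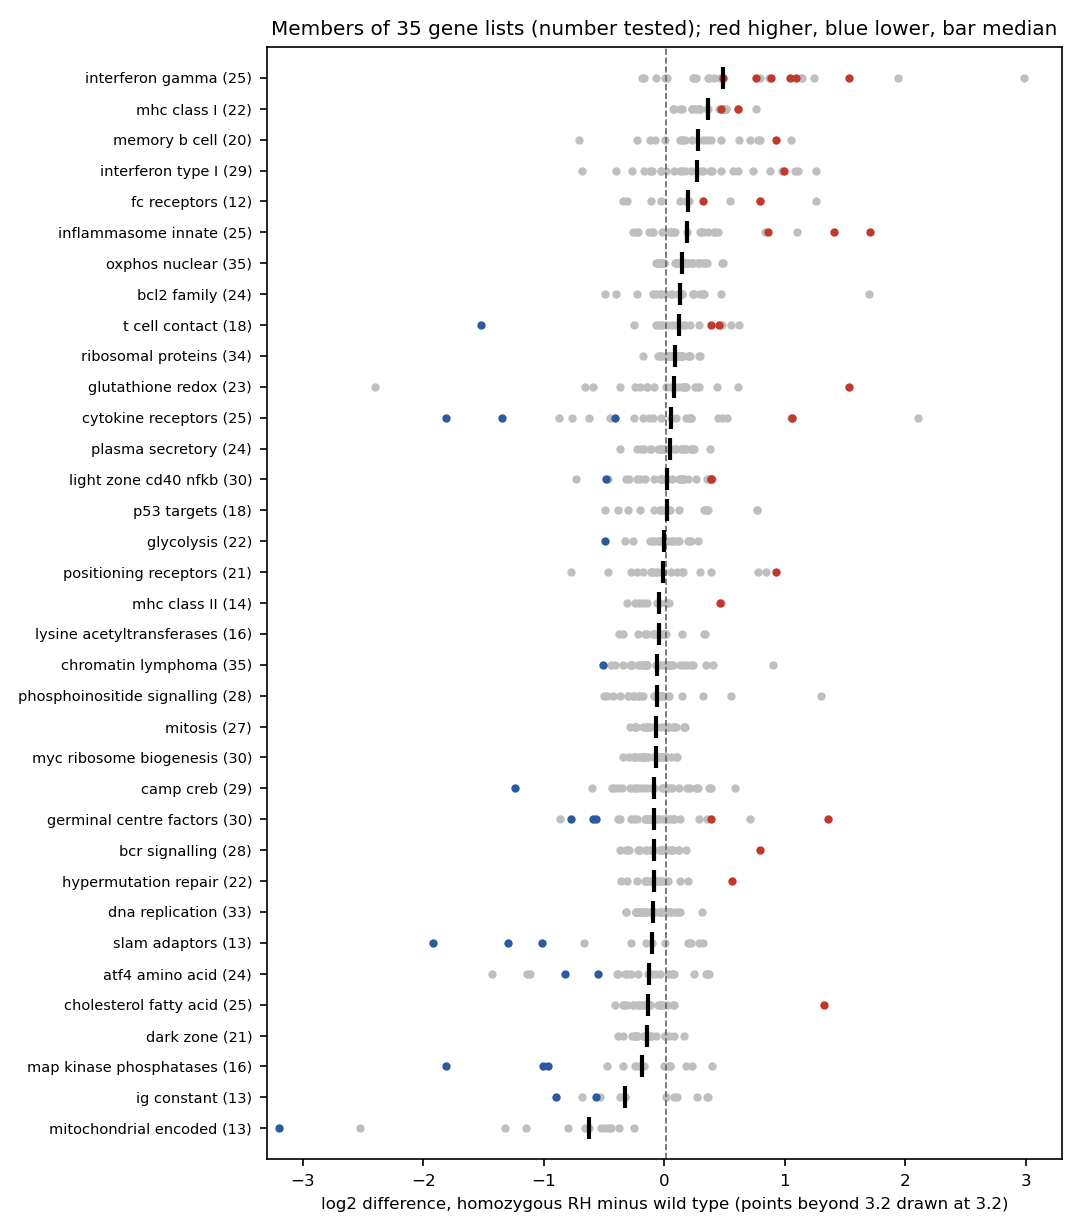
Each row is 1 of 35 gene lists with its number of tested genes, and each point is 1 gene at its log2 difference, homozygous minus wild type; red points were called higher, blue points lower and grey points not called. Black bars mark list medians and the dashed line the median of all tested genes (0.02); the interferon gamma list has the highest median (0.49) and mitochondrially encoded genes the lowest (-0.62).

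Fcgr2b, the inhibitory Fc receptor that restrains signalling of the B cell receptor, had the smallest p of all rises. It lies on chromosome 1 (170958617 to 170976547, minus strand) and stood at 167, 160 and 166 CPM in wild type and at 260, 314 and 279 CPM in homozygous libraries (0.79 ± 0.08, adjusted p = 0.000151). The wild type libraries differed little among themselves, and the call held in all 6 fits that left out 1 library, at 0.71 to 0.84. Fcrla, an Fc receptor-like protein of the secretory pathway encoded nearby (170917576 to 170927583), rose from 210 ± 11.1 to 263 ± 9.59 CPM (SD, n = 3 per group; 0.32 ± 0.08, adjusted p = 0.0497), the smallest of the named rises, and lost its call in each of those fits. They were the 2 calls among 12 tested Fc receptor genes. In B cell receptor signalling, Fcgr2b was the 1 call of 28, and the median of that list was -0.09.

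Of 13 tested genes for SLAM family receptors and SH2 adaptors, which link surface receptors to kinases, 3 adaptors were called lower and 0 genes higher. Sh2d1b1, which encodes the adaptor EAT-2 and lies on chromosome 1 (170277320 to 170286769), stood at 7.23, 4.48 and 6.39 CPM in wild type and at 2.23, 1.52 and 0.999 CPM in homozygous libraries (-1.92 ± 0.27, adjusted p = 0.00155). Sh2d2a, a T cell-specific adaptor by name, stood at 13.7, 11.8 and 12.7 CPM against 5.74, 4.96 and 4.81 CPM (-1.30 ± 0.19, adjusted p = 0.0023). Sh2b2, an adaptor of tyrosine kinases, stood at 137, 115 and 138 CPM against 71.4, 52.3 and 69.7 CPM (-1.01 ± 0.17, adjusted p = 0.00468). These 3 calls held in each fit that left out 1 library. The T cell markers Cd3e, Cd3d and Cd3g were below the filter on low counts.

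Cytokine receptor genes moved in both directions, with 3 of 25 tested members called lower and 1 higher. Ifnlr1, the specific chain of the interferon lambda receptor, stood at 6.39, 6.43 and 9.50 CPM in wild type and at 2.09, 2.51 and 1.73 CPM in homozygous libraries (-1.82 ± 0.26, adjusted p = 0.00155). Il2rb, the beta chain shared by the receptors of interleukins 2 and 15, stood at 9.43, 11.3 and 8.38 CPM against 3.43, 3.83 and 4.18 CPM (-1.35 ± 0.24, adjusted p = 0.00761). Tnfrsf13b, which encodes the BAFF and APRIL receptor TACI, fell from 151 ± 8.36 to 114 ± 2.13 CPM (SD, n = 3 per group; -0.41 ± 0.10, adjusted p = 0.039). Il27ra, a chain of the interleukin 27 receptor, rose from 5.70 ± 1.72 to 11.9 ± 0.545 CPM (1.06 ± 0.22, adjusted p = 0.0171). The Ifnlr1 and Il2rb calls held in all fits that left out 1 library, whereas Tnfrsf13b was lost in each of the 6 (-0.36 to -0.44) and Il27ra without wild type 1, wild type 2 or homozygous 1 (0.86 to 1.05). With a term for the mitochondrial share, the Il2rb and Il27ra calls were lost.

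Contact with T cells was represented by 18 tested genes, of which 2 were called higher and 1 lower. Cd86, the ligand of the costimulatory receptor CD28, stood at 126, 121 and 150 CPM in wild type and at 183, 154 and 183 CPM in homozygous libraries (0.39 ± 0.10, adjusted p = 0.0496). Cd47, a signal against phagocytosis, rose from 91.0 ± 8.22 to 125 ± 3.68 CPM (SD, n = 3 per group, adjusted p = 0.0247). Cd276, an inhibitory ligand of the B7 family, fell from 3.36 ± 0.636 to 1.17 ± 0.255 CPM (-1.52 ± 0.27, adjusted p = 0.00661). Cd276 held in all fits that left out 1 library, and Cd86 and Cd47 were both lost without wild type 1, wild type 2, homozygous 1 or homozygous 3, at 0.33 to 0.35 for Cd86 and 0.41 to 0.47 for Cd47. Cd86 was also not called with DESeq2 size factors (0.38, adjusted p = 0.0606). With a term for the mitochondrial share, neither Cd86 nor Cd47 was called.

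Transcription factors of the germinal centre moved in both directions, with 2 of 30 tested genes called higher and 3 lower, and the median of the list was -0.09. Gfi1, a transcriptional repressor, stood at 3.41, 4.57 and 3.51 CPM in wild type and at 10.7, 8.21 and 10.6 CPM in homozygous libraries (1.36 ± 0.26, adjusted p = 0.0116). Lmo2, a cofactor that marks germinal centre B cells, rose from 95.3 ± 4.05 to 125 ± 1.41 CPM (SD, n = 3 per group; 0.39 ± 0.08, adjusted p = 0.0198). Mef2b, an activator of Bcl6 in these cells, stood at 400, 348 and 330 CPM in wild type and at 243, 254 and 229 CPM in homozygous libraries (-0.57 ± 0.11, adjusted p = 0.0143). Bcl6 itself, at 472 and 427 CPM on average, was not called (-0.15). Tle3, a corepressor, fell from 48.1 ± 11.2 to 28.1 ± 0.218 CPM (-0.77 ± 0.16, adjusted p = 0.0201), and Arid3a, a DNA-binding factor of B cells, from 117 ± 10.6 to 77.3 ± 17.5 CPM (-0.59 ± 0.13, adjusted p = 0.032).

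Each of these 5 calls was lost in at least 1 fit that left out a library. Mef2b was lost without wild type 1 (-0.49, adjusted p = 0.0662), and also with all 6 wild type libraries of the series as control (-0.33, adjusted p = 0.224). Tle3 was lost with that control too. With a term for the mitochondrial share, Mef2b, Lmo2 and Tle3 were lost, while Gfi1 and Arid3a stayed called. Gfi1 was lost without wild type 1 (1.28, adjusted p = 0.0556) or wild type 3 (1.29, adjusted p = 0.0506), and Tle3 without wild type 2 (-0.56, adjusted p = 0.117) or homozygous 1 (-0.78, adjusted p = 0.0678). Lmo2 and Arid3a were each lost in 4 of the 6 such fits, Lmo2 without wild type 1, wild type 2, homozygous 1 or homozygous 3, and Arid3a without wild type 2, wild type 3, homozygous 1 or homozygous 2.

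Of 30 tested light zone genes, which follow CD40 and NF-kB signals, Cd86 and Lmo2 were called higher and Traf1, an adaptor of TNF receptors, lower (-0.48 ± 0.11, adjusted p = 0.0281). Of 21 dark zone genes 0 were called, with 15 negative and a median of -0.14, and the nearest to the threshold was Tcf3, an activator of the dark zone program (-0.38 ± 0.11, adjusted p = 0.0928). The dark zone list summed to 9270 to 9315 CPM in wild type and 7498 to 8608 CPM in homozygous libraries, without overlap. Of its 21 members 6 lay wholly below wild type and 0 wholly above, beside 8.03% and 7.39% of all tested genes. Of 20 memory B cell genes 1 was called higher, with 16 positive and a median of 0.28. It was Gpr183, the oxysterol receptor that draws B cells out of follicle centres, at 7.55, 9.21 and 11.1 CPM in wild type and 19.3, 17.8 and 15.9 CPM in homozygous libraries (0.92 ± 0.22, adjusted p = 0.0443). It was also the 1 call of 21 positioning receptors. Gpr183 was lost in each of the 6 fits that left out 1 library, and Traf1 in 4 (without wild type 1, wild type 2, homozygous 1 or homozygous 3). With a term for the mitochondrial share, the Gpr183 and Traf1 calls were lost and the median of the memory list was 0.04.

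Chromatin regulators mutated in lymphoma gave 1 call lower among 35 tested genes, beside 0.994% of all tested genes called lower. Smarca4, the ATPase of SWI/SNF remodelling complexes, stood at 846, 1008 and 884 CPM in wild type and at 688, 550 and 681 CPM in homozygous libraries (-0.51 ± 0.10, adjusted p = 0.0162), and the call was lost without wild type 2 (-0.43, adjusted p = 0.11). Among regulators of the cyclic AMP pathway, through which CREB is activated, the 1 call of 29 was the phosphodiesterase gene Pde2a. Its level was 32.0, 49.3 and 59.3 CPM in wild type and 22.1, 18.3 and 19.1 CPM in homozygous libraries (-1.24 ± 0.22, adjusted p = 0.00769), and it held in all fits that left out 1 library.

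MAP kinase phosphatases, which switch off ERK, JNK and p38 kinases, were called lower in 3 of 16 tested genes and higher in 0. Over all tested genes these shares were 0.994% and 0.578%. Dusp3 stood at 5.56, 5.19 and 5.65 CPM in wild type and at 0.99, 2.53 and 1.12 CPM in homozygous libraries (-1.81 ± 0.27, adjusted p = 0.00281). Dusp16, a phosphatase of JNK and p38, stood at 55.2, 57.6 and 67.9 CPM against 32.4, 24.4 and 32.9 CPM (-1.01 ± 0.13, adjusted p = 0.000648). Dusp14 fell from 7.87 ± 1.58 to 4.03 ± 0.331 CPM (SD, n = 3 per group; -0.97 ± 0.17, adjusted p = 0.00637). All 3 held in each fit that left out 1 library, though the Dusp14 call was lost with a term for the mitochondrial share (-0.79, adjusted p = 0.0522).

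Innate sensing genes were called higher in 3 of 25 tested members and lower in 0, beside 0.578% and 0.994% of all tested genes. These counts depend on the members chosen. Nlrx1, an innate regulator outside this list, was called lower (-0.81 ± 0.11, adjusted p = 0.00155). Naip5, the cytosolic sensor of bacterial flagellin, stood at 1.55, 3.15 and 3.41 CPM in wild type and at 7.03, 5.49 and 9.11 CPM in homozygous libraries (1.41 ± 0.28, adjusted p = 0.0162). Gsdmd, the pore-forming protein of pyroptosis, stood at 17.6, 16.9 and 21.005 CPM against 30.1, 37.4 and 33.2 CPM (0.86 ± 0.14, adjusted p = 0.00468). Tlr2, a receptor of bacterial lipoproteins, rose from 0.643 ± 0.403 to 2.14 ± 0.423 CPM (SD, n = 3 per group, adjusted p = 0.031). Gsdmd held in all fits that left out 1 library. Naip5 was lost without wild type 1 (1.13, adjusted p = 0.0637) or homozygous 3 (1.19, adjusted p = 0.058), and Tlr2 without wild type 1, wild type 3, homozygous 2 or homozygous 3, at 1.40 to 1.64. The Naip5 and Tlr2 calls were also lost with a term for the mitochondrial share. Naip5 belongs to a family of near-identical copies that share reads, so its level is uncertain.

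**Figure D4:**
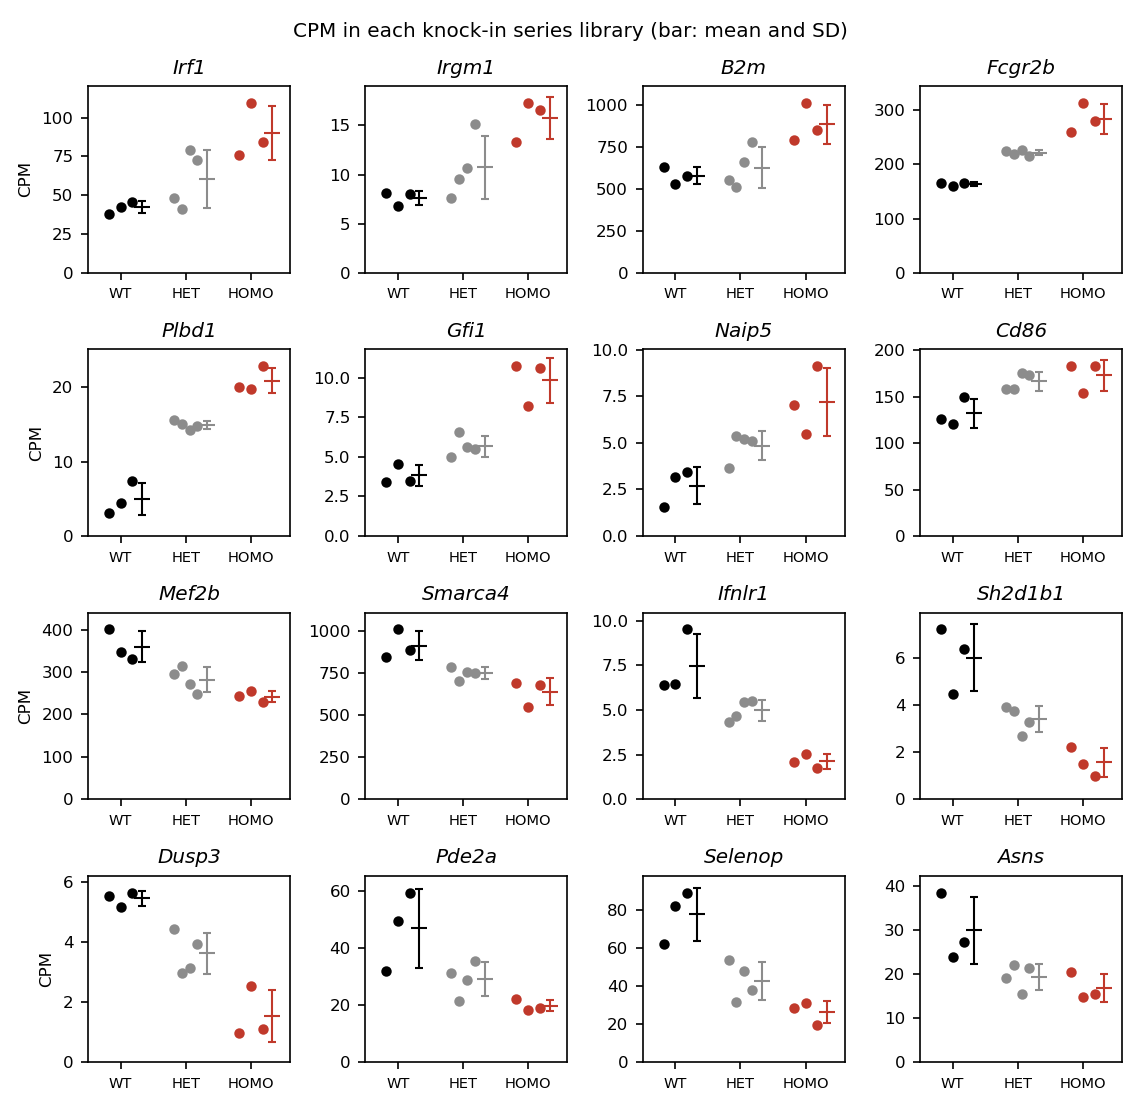
CPM of 16 called genes in each wild type (WT), heterozygous (HET) and homozygous (HOMO) library, with the mean and SD of each group beside the points. In every panel, as in every called gene, the 3 homozygous points lie apart from the 3 wild type points. Fcgr2b, for example, stood at 260 to 314 against 160 to 167 CPM and Dusp3 at 0.99 to 2.53 against 5.19 to 5.65 CPM.

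Among metabolic genes, calls were few and went both ways, beside 1.57% of all tested genes called in either direction. Asns, asparagine synthetase, and Shmt2, the mitochondrial enzyme of one-carbon metabolism, were the 2 calls, both lower, among 24 tested targets of the amino acid response. Asns stood at 38.6, 23.9 and 27.5 CPM in wild type and at 20.4, 14.8 and 15.5 CPM in homozygous libraries (-0.83 ± 0.18, adjusted p = 0.0263), and without wild type 1 it was at -0.61 (adjusted p = 0.126). Shmt2 fell from 302 ± 45.8 to 206 ± 28.2 CPM (SD, n = 3 per group, adjusted p = 0.0247). Pfkp, a phosphofructokinase of glycolysis, was the 1 call of 22, at 231, 198 and 179 CPM against 144, 142 and 147 CPM (-0.49 ± 0.09, adjusted p = 0.0109), and was at -0.39 without wild type 1 (adjusted p = 0.0502). Gstt1, a glutathione transferase, rose (1.53 ± 0.35, adjusted p = 0.0335), with wild type libraries spread from 3.99 to 15.2 CPM and homozygous libraries at 21.8 to 29.5 CPM. Hsd17b11, a steroid dehydrogenase of lipid droplets, rose from 2.83 ± 0.254 to 7.06 ± 1.47 CPM (1.32 ± 0.21, adjusted p = 0.0031). Gstt1 was the 1 call of 23 glutathione and redox genes and Hsd17b11 the 1 call of 25 cholesterol and fatty acid genes, whose median was -0.14. Hsd17b11 held in all fits that left out 1 library, whereas Asns was also lost without homozygous 2 or 3, and Shmt2 and Gstt1 were lost in 4 of the 6. Shmt2 was lost without wild type 1, wild type 2, homozygous 1 or homozygous 3, and Gstt1 without wild type 2, wild type 3, homozygous 1 or homozygous 3. With a term for the mitochondrial share, the Asns, Shmt2, Pfkp and Gstt1 calls were lost.

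Nuclear genes of oxidative phosphorylation had a median of 0.15 with 0 of 35 called, Uqcrb being nearest to the threshold (0.49, adjusted p = 0.197), and ribosomal protein genes a median of 0.09 with 0 of 34 called, Rps24 being nearest (0.29, adjusted p = 0.589). Without homozygous 2 both medians turned negative, to -0.06 and -0.17. All 13 tested mitochondrially encoded genes were negative, with a median of -0.62, and the mitochondrial shares given above move with this list. The 1 call, mt-Nd4l, rested on wild type 1, at 112 CPM there, at 2.13 and 1.94 CPM in wild type 2 and 3, and at 0.495, 1.06 and 1.37 CPM in homozygous libraries. Without wild type 1 it was at -1.07 (adjusted p = 0.324). Of 24 BCL2 family and death genes, 18 p53 targets, 33 replication, 27 mitosis, 30 MYC and ribosome biogenesis and 24 plasma cell and secretory genes, 0 were called, with medians between -0.10 and 0.13. In the mitosis list 7 of 27 members lay wholly below wild type and 0 wholly above, and in the replication list 5 of 33 and 0. Over all tested genes these shares were 8.03% and 7.39%. The members nearest to the threshold were Ei24 of the p53 list (0.35, adjusted p = 0.0518), the BH3-only gene Bik (1.70, adjusted p = 0.0799), the DNA polymerase gene Pold1 (-0.31, adjusted p = 0.0973), Odc1, the first enzyme of polyamine synthesis (-0.34, adjusted p = 0.103), the mitotic kinesin gene Kif20a (-0.28, adjusted p = 0.171) and the chaperone gene Dnajb9 (0.38, adjusted p = 0.231). Of 28 phosphoinositide signalling genes 0 were called as well, and Tsc1, which restrains mTOR, was at -0.42 (adjusted p = 0.06).

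Immunoglobulin constant genes were called lower in 2 of 13 tested genes and higher in 0. Ighg1, which encodes the constant region of IgG1, stood at 1677, 1630 and 1970 CPM in wild type and at 1094, 1105 and 1360 CPM in homozygous libraries (-0.57 ± 0.13, adjusted p = 0.0377). Iglc2, a lambda light chain constant gene, stood at 96.5, 89.7 and 87.2 CPM against 48.6, 56.9 and 41.1 CPM (-0.90 ± 0.12, adjusted p = 0.00149). The joining segment Iglj2, which lies inside the annotated span of Iglc2, fell by 1.21 (adjusted p = 0.000648), and reads of the 2 genes cannot be told apart. Ighm (0.37) and Igkc (0.11), the constant genes of IgM and the kappa chain, did not pass. The list median of -0.33 changed to 0.07 with all 6 wild type libraries as control, while Ighg1 (-0.72) and Iglc2 (-0.78) stayed called there. Iglc2 held in all fits that left out 1 library, and Ighg1 was lost in 5 of the 6, in all but the fit without homozygous 3.

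Falls with a small p outside the lists were found in genes of varied function. Eepd1, a nuclease of stalled replication forks, had the smallest p of all falls, at 6.21, 5.88 and 6.94 CPM in wild type and 1.73, 1.17 and 1.54 CPM in homozygous libraries (-2.10 ± 0.22, adjusted p = 0.000194). Cryz, a quinone oxidoreductase, stood at 22.6, 20.6 and 22.2 CPM against 10.4, 7.57 and 11.2 CPM (-1.17 ± 0.13, adjusted p = 0.000369). Lrrc32, which encodes GARP, the surface anchor of latent TGF-beta, stood at 22.7, 30.7 and 30.3 CPM against 11.4, 6.23 and 8.57 CPM (-1.68 ± 0.21, adjusted p = 0.000648). Rap1gap2, which inactivates the GTPase Rap1, fell from 20.9 ± 1.93 to 8.11 ± 0.950 CPM (SD, n = 3 per group; -1.37 ± 0.18, adjusted p = 0.00111). Gdf15, a stress-induced cytokine of the TGF-beta family, was faint, at 1.31, 2.22 and 1.26 CPM in wild type and 0.035, 0.095 and 0.083 CPM in homozygous libraries (-4.45 ± 0.54, adjusted p = 0.000648). These 5 falls held in every fit that left out 1 library.

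Further falls with the same stability were those of Hpgds, the haematopoietic prostaglandin D synthase, from 53.8 ± 13.4 to 23.4 ± 4.19 CPM (SD, n = 3 per group), Crb2, a polarity protein, from 7.92 ± 0.556 to 3.37 ± 0.439 CPM, and Baiap2l1, which bends membranes through actin, from 10.7 ± 0.486 to 3.89 ± 1.17 CPM. Shisa8 (-1.70 ± 0.26) and Cfap74 (-1.39 ± 0.23), a gene of cilia, belonged to them as well. Selenop, the selenium transport protein, stood at 62.0, 82.1 and 89.1 CPM in wild type and at 28.7, 31.0 and 19.9 CPM in homozygous libraries (-1.55 ± 0.22, adjusted p = 0.00155). Ccdc152, which overlaps the end of Selenop on the other strand, fell too (-1.24 ± 0.24), and because the libraries do not mark strand, reads of the 2 genes cannot be told apart there. Selenop held in all fits that left out 1 library and Ccdc152 was lost without homozygous 1 (-1.20, adjusted p = 0.0547). Igf2bp3, an mRNA-binding protein (-1.21 ± 0.24), was lost without wild type 2 (-1.04, adjusted p = 0.0917) or homozygous 2 (-1.06, adjusted p = 0.0546), Stard9, a kinesin (-1.22 ± 0.23), without wild type 3 (-0.99, adjusted p = 0.0527), and Eppk1, a cytolinker (-1.24 ± 0.27), without wild type 2 or 3 or homozygous 1 or 2, at -1.02 to -1.20.

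Rises outside the lists that held in every fit leaving out 1 library included those of Tspan31, a tetraspanin, from 10.9 ± 1.59 to 20.2 ± 2.23 CPM (SD, n = 3 per group; 0.89 ± 0.13, adjusted p = 0.0016), Rcn1, a calcium-binding protein of the endoplasmic reticulum, from 4.95 ± 1.76 to 12.7 ± 0.832 CPM (1.36 ± 0.20, adjusted p = 0.00254), B3gnt3, a glycosyltransferase, from 2.601 ± 0.213 to 6.18 ± 0.771 CPM (1.25 ± 0.21, adjusted p = 0.00468), and Pltp, a phospholipid transfer protein, from 6.11 ± 0.585 to 12.96 ± 2.65 CPM (1.09 ± 0.19, adjusted p = 0.00661). Tspan31 ranged from 18.6 to 22.7 CPM in homozygous and from 9.06 to 11.9 CPM in wild type libraries. Adgrl2, an adhesion receptor (1.13 ± 0.27), Cul9, a cullin scaffold (1.15 ± 0.25), Vwa5a (1.11 ± 0.22), Fam83f (1.15 ± 0.22) and Fgl2, a fibrinogen-like protein (1.12 ± 0.27), rose as well. The Fam83f call was lost without wild type 2 (1.04) or homozygous 1 (1.07), and the calls of Adgrl2, Cul9, Vwa5a and Fgl2 in 4 or 5 of the 6 such fits, with adjusted p up to 0.171 for Adgrl2 and 0.18 for Fgl2.

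Called genes were spread over the autosomes and X, from 0.55% of tested genes on chromosome 7 to 2.67% on chromosome 16, beside 1.57% over all. The 20 Mb stretch with the most calls lay on distal chromosome 6 (118151745 to 136840662), where 12 of 182 tested genes were called (6.59%), 6 higher and 6 lower. On any other chromosome the stretch with the most calls held 10 of 287 (3.48%), on chromosome 11. The gene order on distal chromosome 6 was Ret, a receptor tyrosine kinase (lower), Ankrd26 (lower), Cacna1c, a calcium channel (lower), Apobec1 (higher), Tapbpl (higher), the predicted gene Gm44223 (higher), BC064078 (higher), Etv6, a repressor of the ETS family (higher), Dusp16 (lower), Emp1, a membrane protein (lower), Plbd1 (higher) and BC049715 (lower).

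**Figure D5:**
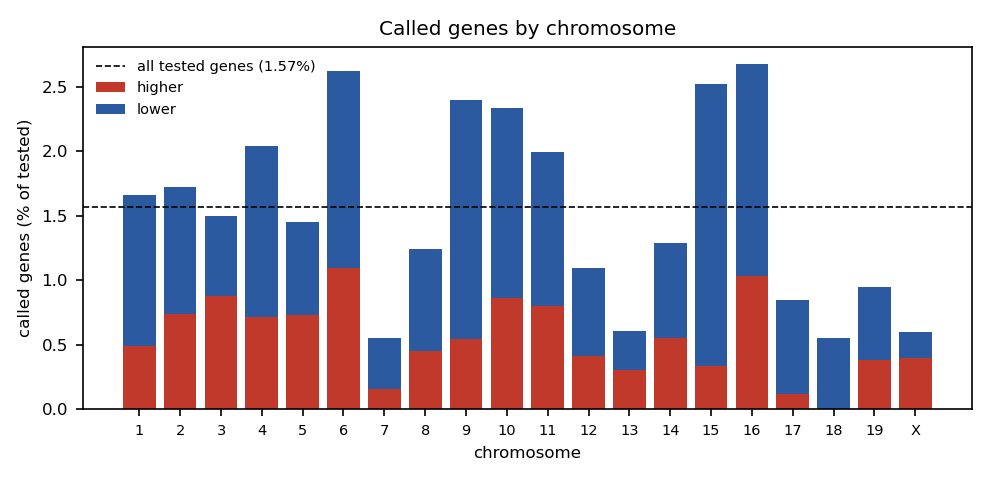
Bars give the percentage of tested genes on each autosome and X that were called, stacked as higher (red) and lower (blue), with the share over all tested genes (1.57%) as a dashed line. Among the autosomes and X, chromosomes 16 (2.67%), 6 (2.63%) and 15 (2.53%) had the largest shares and 7 (0.55%) and 18 (0.551%) the smallest.

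Plbd1, a phospholipase B-like protein of lysosomes (chromosome 6, 136612070 to 136661928, minus strand), rose more than any other gene of the stretch with counts in all groups. It stood at 3.09, 4.37 and 7.34 CPM in wild type, at 15.6, 15.04, 14.3 and 14.75 CPM in heterozygous and at 20.003, 19.8 and 22.8 CPM in homozygous libraries, and the 3 groups did not overlap (2.07 ± 0.24 for homozygous against wild type, adjusted p = 0.000493). Apobec1, an RNA and DNA cytidine deaminase (122577792 to 122602444), stood at 168, 181 and 200 CPM in wild type and at 264, 294 and 255 CPM in homozygous libraries (0.56 ± 0.09, adjusted p = 0.00285). It was the 1 call of 22 hypermutation and repair genes. Gm44223 had 0 counts in each of the 3 wild type libraries and 27, 16 and 22 in the homozygous libraries. BC064078 rose from 16.4 ± 1.20 to 29.8 ± 3.37 CPM (SD, n = 3 per group, adjusted p = 0.00519), and Etv6 from 39.9 ± 5.75 to 64.7 ± 14.6 CPM (adjusted p = 0.0275). Cacna1c fell from 1.09 ± 0.307 to 0.215 ± 0.0617 CPM, on 8 to 18 counts in each homozygous library.

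In this stretch the calls of Plbd1, Apobec1, Dusp16, BC064078 and Cacna1c held in every fit that left out 1 library, and those of Ret, Ankrd26, Tapbpl, Gm44223, Etv6, Emp1 and BC049715 were lost in 3 to 6 of the 6, BC049715 in each. The stretch does not hold Crebbp, which lies on chromosome 16. Whether the libraries differ in DNA sequence here cannot be told from counts per gene.

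Markers of other cells that a spleen sort can hold were faint or not called, with 1 exception. Thy1, a T cell marker, stood at 0.419, 0.200 and 0.281 CPM in wild type and at 1.03, 1.86 and 1.08 CPM in homozygous libraries (2.15 ± 0.48, adjusted p = 0.0282), and was the 1 call of 6 tested T cell markers of 13, which summed to 207 to 219 CPM in wild type and 214 to 255 CPM in homozygous libraries. It was lost without wild type 2 (1.93, adjusted p = 0.135), wild type 3 (2.11, adjusted p = 0.0897) or homozygous 2 (1.82, adjusted p = 0.0921). Of 14 macrophage and monocyte markers 11 were tested and 0 called, with 8 positive, a median of 0.70 and summed levels of 23.2 to 29.1 CPM in wild type and 22.5 to 36.3 CPM in homozygous libraries. The macrophage marker Adgre1 (1.14 ± 0.31, adjusted p = 0.0768) and the dendritic cell marker Itgax (1.82 ± 0.50, adjusted p = 0.0776) did not pass, nor did the erythroid gene Car2 (0.91, adjusted p = 0.0522), the NK gene Klrb1c (2.24, adjusted p = 0.202), the follicular dendritic cell and B cell gene Cr2 (-0.15, adjusted p = 0.719) and the plasma cell gene Xbp1 (0.15, adjusted p = 0.482). Under other choices of tool, filter, terms or libraries, Itgax was called higher in 7 of 21 fits, Car2 in 6 and Adgre1 in 4. Klrb1c and Xbp1 were each called in 1 such fit and Cr2 in 0. Adgre1, Itgax, Car2 and Klrb1c had every homozygous library above every wild type library, as had 7.39% of all tested genes. Klrb1c lies within the distal chromosome 6 stretch described above (128778485 to 128789215). It stood at a mean of 0.107 CPM in wild type, 0.623 CPM in heterozygous and 0.525 CPM in homozygous libraries. Of the neutrophil markers 0 of 7 were tested, and S100a8, Ngp, Mpo and Elane had 0 counts in all 6 libraries. The part of these cells in the rises of Tlr2, Ctss, Fcgr2b and the interferon genes, which macrophages and dendritic cells also express, was not tested. Among follicular naive B cell markers 1 of 14 was called, Gpr183, with a median of 0.24 that became -0.10 with a term for the mitochondrial share. In bulk RNA, fewer cells of a type and less RNA per cell cannot be told apart.

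The heterozygous libraries show how these genes stood with 1 altered copy, although they share the wild type controls. Fcgr2b stood at 225, 219, 226 and 216 CPM in the 4 heterozygous libraries, above every wild type and below every homozygous library. Ifnlr1 stood at 4.34, 4.65, 5.45 and 5.50 CPM and Sh2d1b1 at 3.91, 3.74, 2.68 and 3.31 CPM, also between the groups without overlap. For Smarca4 the values were 786, 702, 755 and 751 CPM, again below every wild type and above every homozygous library. In 4 of the 6 called interferon genes, Irf1, Irgm1, Igtp and Ifi47, some heterozygous libraries lay within the wild type range and others within the homozygous range, with Irgm1 at 7.596, 9.54, 10.7 and 15.2 CPM. Heterozygous Tgtp2, at 1.33, 1.49, 3.48 and 3.60 CPM, stayed below every homozygous library, and heterozygous Gbp3, at 24.8 to 29.5 CPM, lay above every wild type library. Heterozygous Sh2b2, at 124, 105, 117 and 96.5 CPM, overlapped the wild type range of 115 to 138 CPM, and the values of Apobec1, at 251, 289, 275 and 260 CPM, overlapped the homozygous range.

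Tested directly, homozygous and heterozygous libraries differed in 0 genes (0%) by edgeR. Before adjustment 1889 genes had a p under 0.05, the smallest p after it was 0.105, and DESeq2 called 132 genes and limma-voom 89. With 1 library left out, edgeR called 0 or 1 gene, namely Dusp3 without homozygous 2 (-1.79, adjusted p = 0.00215), Rdx without wild type 3 (0.88) and Gm9522 without wild type 1 (-6.83). The differences of single genes, homozygous minus heterozygous, were -1.27 ± 0.21 for Eepd1, -0.98 ± 0.18 for Sh2d2a (adjusted p = 0.105 each), 0.36 ± 0.07 for Fcgr2b (adjusted p = 0.108), 0.58 ± 0.19 for Irf1 (adjusted p = 0.344) and 0.01 ± 0.08 for Apobec1 (adjusted p = 0.969).

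The effect of the homozygous allele was set against the effect of the knockout, each measured from its own wild type libraries. The 2 effects differed in 40 genes (0.241% of those tested), 13 with a higher (0.0783%) and 27 with a lower homozygous effect (0.163%), and 19 of the 40 were among the 261 called genes. Plbd1 had the smallest p among the called rises, at 2.07 in homozygous and -0.15 in knockout cells, and Lrrc32 and Crb2 fell in homozygous cells (-1.68 and -1.23) but stood at 0.06 and 0.05 in knockout cells. In other genes, whose effects had the same sign in both models, the difference did not pass. Eepd1 stood at -2.10 and -1.43, Sh2d1b1 at -1.92 and -2.65, Ifnlr1 at -1.82 and -1.51, and Gfi1 at 1.36 and 1.4997, with differences of -0.67 ± 0.30, 0.72 ± 0.38, -0.31 ± 0.35 and -0.14 ± 0.36. For Irf1 (1.096 and -0.08) and B2m (0.61 and -0.24) the differences of 1.18 ± 0.30 (adjusted p = 0.123) and 0.86 ± 0.19 (adjusted p = 0.0734) did not pass either, nor did that of H2-Aa (-0.04 and -0.61, difference 0.57 ± 0.15, adjusted p = 0.16).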

How the data were processed

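Raw read counts per gene were used as deposited: per the submitters' processing notes, CASAVA 1.8, HISAT2 and featureCounts were used with the mm10 build, without versions for the last 2. The labels give a library kit that does not mark strand, so overlapping genes on opposite strands share reads. Among counts from 1 to 20, 80.3% to 87.3% were even in each of the 6 libraries, as when both reads of a pair are counted, so there are fewer independent fragments than counts. Library totals ran from 41407419 to 65534180 counts.

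All 16 libraries were fitted in edgeR 4.0.16 (R 4.3.3) with 5 group means, filterByExpr, TMM scaling and the quasi-likelihood test, leaving 11 residual degrees of freedom. Homozygous minus wild type was tested over 16606 genes with Benjamini-Hochberg adjustment and a threshold of 0.05. The SE is the log2 difference divided by the square root of F. The difference of this effect from the knockout effect and homozygous minus heterozygous were contrasts of that fit. All adjusted p values are edgeR's unless another tool is named. Alternatives used DESeq2 1.42.0 and limma 3.58.1 (voom), other scalings, filters, terms and subsets of libraries. The script was tested on simulated counts.

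Replicates were numbered in accession order within a group, since the titles carry no shared number. Positions are from GENCODE M21 (GRCm38, the assembly called mm10). Genes were named by this rule: among called genes whose log2 CPM averaged 2 or more, the 15 that rose and the 15 that fell most, leaving out immunoglobulin and predicted genes and pseudogenes. To these were added the 5 called genes with the smallest p in each direction, every called member of a list or else the member with the smallest p, the called genes of the 20 Mb stretch with the most calls, Crebbp, Ep300, MHC class II genes and the 3 genes with the smallest p in each direction of a difference test. Other members given beside them were picked after their values were seen. The comparison, its rule and the 45 gene lists were chosen with earlier results of these data known.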

Additional observations from a re-analysis of the deposited data

Results flagged for a closer look

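In 16 genes that the text names, the effect of the homozygous RH allele and the effect of the knockout, each measured from its own wild type libraries, differed by a test of the difference itself (edgeR's quasi-likelihood test, adjusted over all tested genes). Values are the homozygous effect minus the knockout effect on the log2 scale. The lambda light chain genes Iglj2 (-1.82, adjusted p = 0.000893) and Iglc2 (-1.39, adjusted p = 0.00191) and the IgG1 gene Ighg1 (-1.02, adjusted p = 0.0282) were lower in homozygous cells and at 0.61, 0.49 and 0.45 in knockout cells.

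On distal chromosome 6 the difference was 2.22 for Plbd1 (adjusted p = 0.0101), 0.65 for the deaminase gene Apobec1 (adjusted p = 0.0317) and 1.06 for BC064078 (adjusted p = 0.0418), each higher in homozygous cells and between -0.20 and -0.09 in knockout cells. Genes that fell in homozygous cells were Lrrc32, the anchor of latent TGF-beta (-1.74, adjusted p = 0.0205), the polarity gene Crb2 (-1.29, adjusted p = 0.021), the phosphatase gene Dusp14 (-1.37, adjusted p = 0.022), the adaptor gene Sh2b2 (-1.34, adjusted p = 0.0243), the transcription factor gene Mef2b (-0.82, adjusted p = 0.0408) and Rap1gap2 (-1.25, adjusted p = 0.0471). Their knockout effects lay between -0.11 and 0.40. For the costimulatory ligand gene Cd86 the difference was 0.69 (adjusted p = 0.0418).

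The other 3 were not called in homozygous against wild type cells. Dmwd stood at -0.19 in homozygous and 1.05 in knockout cells (difference -1.24, adjusted p = 0.000893), Hemgn, a nuclear factor of blood progenitors, at 0.25 and -1.19 (1.44, adjusted p = 0.00262), and Fxyd5, a regulator of the sodium pump, at 0.67 and -1.15 (1.81, adjusted p = 0.0108).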

How the results depend on the processing

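The 96 rises and 165 falls were counted again under other choices. The counts were 197 and 290 at an adjusted p under 0.1, 35 and 86 with a log2 size of at least 1, 257 and 409 with DESeq2, 535 and 585 with limma-voom, 29 and 78 with the 10 knock-in libraries only, and 320 and 337 with all 6 wild type libraries as control. Without a count filter 158 genes rose, and without wild type 1 and homozygous 2 together 49 did. With a term for the mitochondrial share 66 rose and 215 fell, of which 29 were among the 96 and 99 among the 165. With the 6 libraries alone edgeR called 0 and 0. On these libraries DESeq2 called 117 and 181 and limma-voom 209 and 339, both chosen after seeing the data. Leaving out 1 library gave 34 to 101 rises and 81 to 157 falls. Against heterozygous cells, 0 genes became 132 with DESeq2, 89 with limma-voom and 0 to 1 with 1 library left out. The 40 genes whose effect differed from the knockout became 243 with DESeq2, 645 with limma-voom and 11 to 67 with 1 library left out. The cause of these changes was not tested. Of the 261 calls DESeq2 kept 258 and limma-voom 250. No paired analysis was possible because the titles carry no shared replicate number and replicates were numbered in accession order.

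Some differences near 0 changed sign. With limma-voom they were 0.263 for Ep300, 0.013 for H2-Aa, -0.022 for H2-Ab1, -0.023 for H2-DMa and 0.021 for Cr2, and with limma-voom on the 6 libraries 0.254, 0.003, -0.037, -0.031 and 0.011, and 0.00 for Cd74. At 1 CPM in 3 libraries Crebbp was at -0.002, H2-Ab1 at -0.005 and H2-DMa at -0.002. With all 6 wild type libraries Crebbp was at -0.204, Dmwd at 0.087, H2-Eb1 at 0.025 and Hemgn at -0.037. With a term for sex Crebbp was at -0.082, and with one for the mitochondrial share Crebbp was at -0.277, H2-DMa at -0.088, H2-DMb1 at 0.18 and H2-Oa at -0.114. Without wild type 1 and homozygous 2 together Cd74 was at -0.022, Ep300 at 0.224, H2-Ab1 at -0.067, H2-DMa at -0.039 and H2-Oa at -0.046. With 1 library left out the range was -0.111 to 0.121 for Cd74, -0.16 to 0.237 for Crebbp, -0.31 to 0.267 for Ep300, -0.101 to 0.058 for H2-Aa, -0.124 to 0.105 for H2-Ab1, -0.02 to 0.051 for H2-DMa, -0.318 to 0.056 for H2-DMb1, -0.147 to 0.005 for H2-Eb1, -0.031 to 0.112 for H2-Oa, -0.268 to 0.056 for Cr2 and -0.025 to 0.479 for Rps24. None of these passed the test in any of those fits.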

Other observations

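The called genes below lie outside the lists and were chosen one by one after their values were seen, so they stand for no group. Of the 22 genes in the hypermutation and repair list, 0 were called lower and 1, Apobec1, higher. Outside that list, Parp1, the sensor of DNA strand breaks, stood at 772, 743 and 769 CPM in wild type and at 519, 414 and 538 CPM in homozygous libraries (-0.64 ± 0.10, adjusted p = 0.0032). Recql5, a DNA helicase, stood at 149, 145 and 131 CPM against 95.9, 93.0 and 98.5 CPM (-0.57 ± 0.09, adjusted p = 0.00497), and both calls held in every fit that left out 1 library. Hmces, which shields abasic sites (-0.54 ± 0.11), Xrcc1, the scaffold of single-strand break repair (-0.49 ± 0.10), and Msh5, a meiotic MutS homolog (-0.76 ± 0.16), fell as well. Hmces was lost without wild type 1 or 2, and Xrcc1 and Msh5 in 4 of the 6 such fits, and all 3 with a term for the mitochondrial share (adjusted p from 0.0706 to 0.108).

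Vangl1, a planar polarity protein, stood at 0.419, 0.619 and 0.641 CPM in wild type and at 3.29, 1.93 and 4.66 CPM in homozygous libraries (2.54 ± 0.41, adjusted p = 0.0039), and its paralog Vangl2 rose by 1.09 ± 0.21 (adjusted p = 0.012), a call lost without wild type 1 or 3. Gimap3 (0.72 ± 0.14, lost without wild type 1) and Gimap4 (0.57 ± 0.14, lost in all 6 such fits), which encode lymphocyte GTPases, rose. Ctsb, a lysosomal protease (0.44 ± 0.09), and Npc2, a lysosomal sterol carrier (0.56 ± 0.12), rose too and were lost in 3 and 4 of the 6. Vangl1 (adjusted p = 0.0567), Vangl2 (0.0506), Gimap3 (0.0635), Gimap4 (0.0979) and Ctsb (0.0996) were not called with a term for the mitochondrial share. Among falls that held in each such fit were the deubiquitinase genes Usp2 (-1.15 ± 0.15) and Otub2 (-0.88 ± 0.11) and Nlrx1, an innate regulator of mitochondria (-0.81 ± 0.11).

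Some faint genes were near 0 in 1 group. Efcab3 had 0, 1 and 3 counts in wild type and 150, 126 and 68 in homozygous libraries, with 32, 0, 6 and 18 in heterozygous ones (adjusted p = 0.0247), and the overlapping model Gm11639 was called too (3.75 ± 0.87, adjusted p = 0.0365). The Efcab3 call was lost without wild type 1, 2 or 3 or homozygous 1, with adjusted p up to 0.117, and the Gm11639 call without wild type 2 or 3 or homozygous 1 or 2, with adjusted p up to 0.12. Hoxa6 had 0 counts in each wild type library and 29, 7 and 10 in homozygous libraries, at least 13.3-fold higher by a floor of 3 counts over the group (adjusted p = 0.0481), a call lost in 5 of the 6 fits that left out 1 library, in all but the fit without homozygous 2, with adjusted p up to 0.155. Aire, the regulator of self-antigen expression in the thymus, had 10, 10 and 12 against 68, 122 and 89 counts (2.86 ± 0.60, adjusted p = 0.0207), and its call was lost without wild type 1, 2 or 3, at 2.71 to 2.96 with adjusted p from 0.0637 to 0.11. With a term for the mitochondrial share the calls of Efcab3 (adjusted p = 0.0972), Gm11639 (0.218), Hoxa6 (0.112) and Aire (0.0977) were lost as well. Cdkn2a, the Ink4a and Arf gene, had 10, 73 and 42 against 254, 386 and 143 (2.45 ± 0.43, adjusted p = 0.00646), which held in each fit that left out 1 library. In the other direction Fabp7, a fatty acid binding protein, had 30, 14 and 8 against 0, 0 and 0 counts, at least 19.9-fold lower (adjusted p = 0.0485, lost in all 6 such fits), and Lgr6, an R-spondin receptor, 62, 63 and 86 against 12, 6 and 12 (-3.02 ± 0.47, adjusted p = 0.00297).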
